A study of Brassica napus with 48 samples.

Results

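CRF6 (BnaA07g38140D) and IDD1 (BnaA09g52630D) are 2 transcription factors (TFs) of rapeseed (Brassica napus), taken here by their identifiers from the 101040 genes listed. The study annotates BnaA07g38140D as an AP2/ERF domain gene with the Arabidopsis orthologue AT3G61630 and BnaA09g52630D as a C2H2 zinc finger gene with the orthologue AT5G66730. It named both as candidates from a co-expression module of seed libraries at 7 days after flowering (DAF) that follows shading, so their rise under shading at 7 DAF is not independent of how they were chosen. Seeds were collected in the field from 2 spring hybrids, Lumen and Solar, sown at an optimal or a late date. The source–sink (S–S) ratio was left as it was in control plots and lowered in others by black nets, which intercepted 75% of the radiation from the start of flowering until 15 DAF. The seeds of several plants per plot were pooled and sequenced at 7 and 14 DAF. This gives 16 groups of 3 libraries: Lumen and Solar, each as control and shading, each sown at the optimal and at the late date, each at 7 and 14 DAF. The 3 replicates are field plots. Both genes are described across these groups of whole seeds, in which fewer cells of a type and less RNA per cell cannot be told apart.

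Cytokinin response factors are AP2/ERF proteins that act beside the type-B response regulators downstream of the cytokinin receptors. In Arabidopsis, CRF6 is induced by cytokinin and by oxidative stress and delays leaf senescence. IDD proteins carry the INDETERMINATE DOMAIN, a set of zinc fingers that binds DNA, and several of them work as partners of DELLA proteins in gibberellin signalling. Arabidopsis IDD1, also called ENHYDROUS, promotes the passage from seed maturation to germination. These roles are known from Arabidopsis and are background to the levels given here. Rapeseed is an allotetraploid with an A and a C subgenome, so that an Arabidopsis gene usually has several copies. The annotation used here gives CRF6 a second copy, BnaC06g42850D, and IDD1 a second copy, BnaCnng53120D.

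Values are TPM (transcript levels scaled by length and library size) that the authors normalized with sleuth. The deposited values are rounded to whole numbers. At the level of CRF6, a step of 1 TPM is a large part of the value. Since TPM keep no read number, no depth can be given for a value. The sums per library ranged from 908993 TPM (Solar control optimal at 7 DAF, replicate 3) to 1219379 TPM (Lumen shading late at 14 DAF, replicate 1). The libraries thus do not share a common total. The labels of Solar need care. Libraries of both hybrids at 14 DAF in the late sowing date served as reference for 47 genes found there only in Solar and 51 found only in Lumen. Set against the reference levels, the Solar genes made up under 50% of the summed relative level of both sets (the Solar share) in 6 of 6 libraries labelled Solar at 7 DAF and 2 of 6 at 14 DAF for the optimal sowing date, and in 1 of 6 at 7 DAF for the late one. Replicate 2 of the optimal sowing date at 7 DAF, labelled Solar control in one library and Solar shading in the other, had Solar shares of 1.35 and 1.34%, and these libraries were the closest of all 1128 pairs of libraries. The main shading effects and some other results are therefore also given for Lumen alone, and without this pair where it changes the call. Genotype differences over all libraries go by the label and may be understated for this reason.

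CRF6 was low in control seeds and higher in shaded seeds. The difference was larger at 7 DAF, the time of the libraries from which CRF6 was picked. Its change with time did not pass the test given below. At 7 DAF the control libraries had 3, 2 and 2 TPM in Lumen in the optimal sowing date, 2, 2 and 2 TPM in Lumen in the late one, 4, 3 and 3 TPM in Solar in the optimal one and 3, 2 and 1 TPM in Solar in the late one. Under shading, Lumen had 4, 7 and 8 TPM in the optimal and 7, 14 and 24 TPM in the late sowing date, and Solar had 15, 3 and 11 TPM in the optimal and 8, 9 and 16 TPM in the late one. The highest control library at 7 DAF had 4 TPM, and 10 of 12 shaded libraries lay above it. The lowest shaded library, with 3 TPM, was replicate 2 of the closest pair, and its control partner also had 3 TPM. The shaded replicates themselves spread widely, in TPM most of all in Lumen in the late sowing date (7 to 24 TPM) and relative to the mean most of all in Solar in the optimal one (3 to 15 TPM).

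At 14 DAF the levels of CRF6 in control and shaded seeds mostly overlapped. Control seeds had 2, 2 and 2 TPM (optimal) and 5, 3 and 1 TPM (late) in Lumen, and 0, 3 and 3 TPM (optimal) and 4, 5 and 2 TPM (late) in Solar. Shaded seeds had 4, 4 and 4 TPM (optimal) and 5, 3 and 3 TPM (late) in Lumen, and 6, 1 and 1 TPM (optimal) and 5, 5 and 10 TPM (late) in Solar. At this time, 2 of 12 shaded libraries lay above the highest control library, which had 5 TPM. Only Lumen in the optimal sowing date kept its control and shaded libraries apart at 14 DAF.

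**Figure D1:**
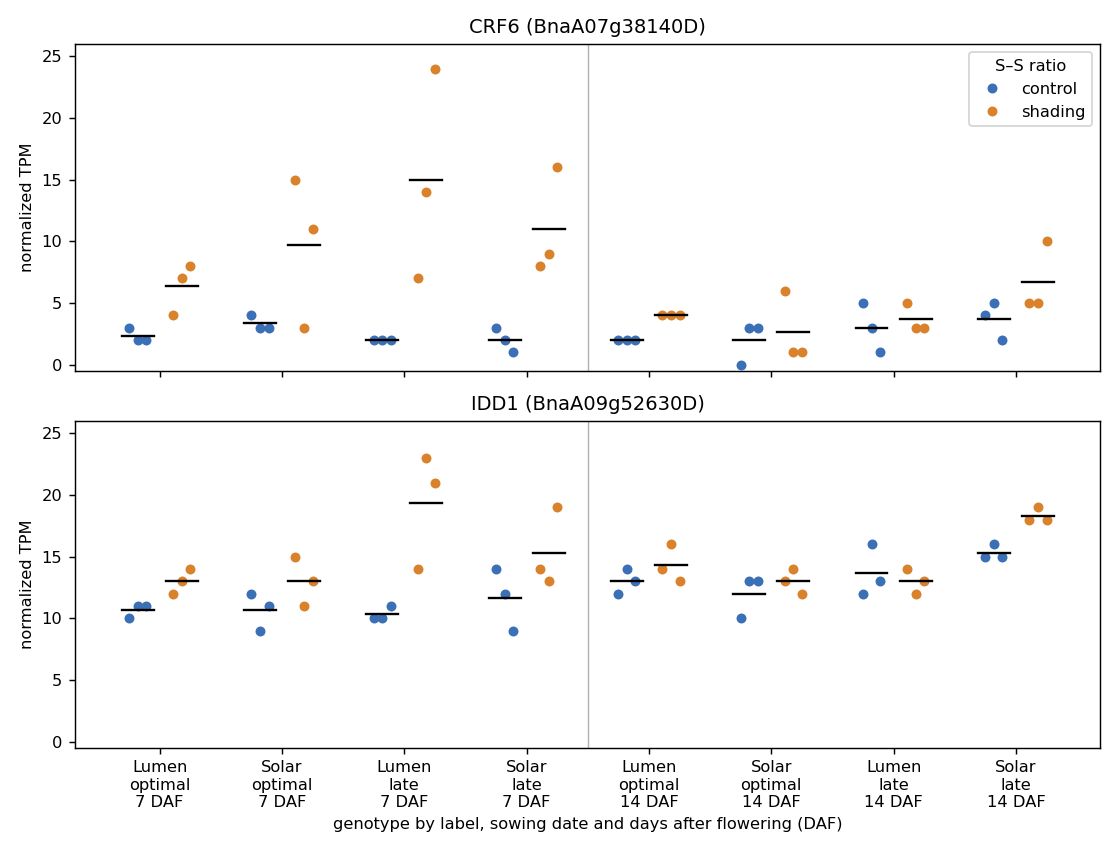
Normalized TPM of CRF6 (top) and IDD1 (bottom) in each of the 48 libraries, by genotype label, sowing date and time on the horizontal axis. Points are libraries (blue control, orange shading), short black lines are means of 3 libraries, and the grey line separates 7 from 14 DAF. The shaded CRF6 points at 7 DAF reach 24 TPM while the control points stay at or below 4 TPM. IDD1 moves between 9 and 23 TPM.

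Over all 48 libraries, CRF6 had 2.54 ± 1.18 TPM in control seeds and 7.38 ± 5.44 TPM in shaded seeds (SD, n = 24 each). The shading effect (SS) was a log2 difference of 1.19 (standard error 0.21, 95% confidence interval 0.77 to 1.61, adjusted p = 6.82e-05, limma), a 2.29-fold rise on the scale of log2(TPM + 0.5), which understates changes at low values. Among all 53810 genes tested, 9.21% passed the threshold of adjusted p under 0.01 for SS, 6.18% upwards and 3.03% downwards. CRF6 ranked 1225 by p among them. At 7 DAF the means were 2.42 ± 0.79 TPM in control seeds and 10.5 ± 5.90 TPM in shaded seeds (SD, n = 12 each), a log2 difference of 1.77 (standard error 0.29, adjusted p = 7.31e-05, limma). In that comparison 4.59% of all genes passed the threshold, and 3.66% did so upwards.

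At 14 DAF, in libraries that did not enter the network from which CRF6 was picked, the means were 2.67 ± 1.5 TPM in control seeds and 4.25 ± 2.38 TPM in shaded seeds (SD, n = 12 each). The log2 difference of 0.62 (standard error 0.29, 95% confidence interval 0.02 to 1.21) did not pass the threshold (adjusted p = 0.172, limma), which 6.56% of all genes did, with 3.77% upwards. The change of the shading difference with time was itself tested as an interaction. It was −1.16 on the log2 scale (standard error 0.41, adjusted p = 0.107, limma, unadjusted p = 0.00824) and did not pass the threshold, which 0.771% of all genes passed. Without the libraries of replicate 1, the interaction passed the threshold, at −1.72 (adjusted p = 0.00918, limma).

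Taken by combination, the mean log2 level of CRF6 under shading exceeded its control in all 8 combinations (genotype with sowing date and time), by 0.41 to 2.47. At 14 DAF the sign rested on single libraries in 2 of them. It turned in Solar in the optimal sowing date without control replicate 1, which had 0 TPM (−0.52), without shading replicate 1 (−0.29) or without both (−1.22, all libraries of replicate 1 left out). In Lumen, late sowing, it turned without control replicate 3 (−0.11). The largest was in Lumen in the late sowing date at 7 DAF (2.47, standard error 0.59, adjusted p = 0.00966, limma), the only combination past the threshold. The call was narrow: with the replicate number as a block the adjusted p was 0.0127, and it was 0.0109 with no filter, 0.0108 with quantile normalization, 0.0108 without the trend and 0.0202 at a pseudocount of 0.25 (limma). There 1.74% of all genes passed, 1.62% upwards. Leaving out single libraries took this adjusted p between 0.00236 and 0.132 and kept the call in 15 of 48 fits. The difference in Solar in the late sowing date at 7 DAF was close to it in size (2.22, adjusted p = 0.0408, limma) and missed the threshold, which 0.23% of all genes passed upwards. Every shaded library lay above every control library in 3 of 4 combinations at 7 DAF, a pattern held by at least 3 of 4 combinations in 1.29% of all genes. These were Lumen in the optimal sowing date (6.72% of all genes separated there), Lumen in the late one (6.52%) and Solar in the late one (6.34%). At 14 DAF the same held in 1 of 4 combinations, Lumen in the optimal sowing date (7.4% of all genes).

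In Lumen alone, whose libraries outside the reference had Solar shares of at most 1.69%, CRF6 also rose. SS was 1.24 (adjusted p = 0.000853, limma, 24 libraries) and shading at 7 DAF was 1.85 (adjusted p = 0.000813, limma). In the model of all 48 libraries, SS kept its call in each of 48 fits without a single library, between 1.08 and 1.28. Without all 16 libraries of replicate 3, however, SS was 0.97 and no longer past the threshold (adjusted p = 0.0325, limma), and shading at 7 DAF was 1.38 (adjusted p = 0.102, limma). Replicate 3 holds the highest CRF6 libraries of both hybrids in the late sowing date, with 24 and 16 TPM.

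Time, sowing date and genotype moved CRF6 less than shading. Its level was 6.46 ± 5.83 TPM in the libraries at 7 DAF against 3.46 ± 2.11 TPM in those at 14 DAF (SD, n = 24 each), a log2 difference of −0.62 (adjusted p = 0.0134, limma), just short of the threshold that 33.8% of all genes passed, 16.7% upwards and 17.2% downwards. It passed without the closest pair (−0.71, adjusted p = 0.0047, limma), with each library rescaled to the same sum (−0.70, adjusted p = 0.00449, limma) and at a pseudocount of 1 (−0.55, adjusted p = 0.00969, limma). In shaded seeds the level was lower at 14 than at 7 DAF in all 4 combinations, by log2 differences from −0.55 to −1.80. The libraries of both times overlapped in each of these except Lumen in the late sowing date. The share of all genes separated downwards there is not given, so this separation is not read further. In control seeds the level was lower in 2 and higher in 2 of 4 combinations. The interaction of time and shading, which tests this contrast, did not pass the threshold (−1.16, adjusted p = 0.107, limma). The late sowing date had 5.88 ± 5.49 TPM and the optimal one 4.04 ± 3.36 TPM (log2 difference 0.42, adjusted p = 0.12, limma). Lumen and Solar had 4.79 ± 4.96 and 5.12 ± 4.30 TPM, a log2 difference of 0.02 (95% confidence interval −0.40 to 0.44, adjusted p = 0.949, limma), in a comparison that 26.2% of all genes passed. At 14 DAF in the late sowing date, where the genotype labels served as the reference, Solar had 5.17 ± 2.64 and Lumen 3.33 ± 1.51 TPM (SD, n = 6 each, log2 difference 0.56, adjusted p = 0.308, limma, 25.5% of all genes past the threshold). SS was the only one of the 15 terms of the model past the threshold for CRF6.

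In order of mean level, the first 3 groups for CRF6 were Lumen shading late at 7 DAF (15.0 ± 8.54 TPM), Solar shading late at 7 DAF (11 ± 4.36 TPM) and Solar shading optimal at 7 DAF (9.67 ± 6.11 TPM, SD, n = 3 each). Next came Solar shading late at 14 DAF (6.67 ± 2.89 TPM) and Lumen shading optimal at 7 DAF (6.33 ± 2.08 TPM). The gap below the latter, 2.33 TPM, was the only gap between neighbours in the order that exceeded the larger SD of both groups. The other 11 groups lay between 2.0 and 4.0 TPM, and neighbours among them did not differ beyond their spread. All 8 control groups were among those 11.

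IDD1 was expressed more evenly and at a higher level than CRF6, between 9 and 23 TPM, and its response to shading was small. At 7 DAF, control libraries had 10, 11 and 11 TPM (optimal) and 10, 10 and 11 TPM (late) in Lumen, and 12, 9 and 11 TPM (optimal) and 14, 12 and 9 TPM (late) in Solar. Shaded libraries had 12, 13 and 14 TPM (optimal) and 14, 23 and 21 TPM (late) in Lumen, and 15, 11 and 13 TPM (optimal) and 14, 13 and 19 TPM (late) in Solar. Control and shaded libraries were separate in both Lumen combinations, where 6.72% (optimal) and 6.52% (late) of all genes separated in this direction, and overlapped in both Solar ones. The highest control library at 7 DAF had 14 TPM and 4 of 12 shaded libraries exceeded it.

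At 14 DAF, control libraries had 12, 14 and 13 TPM (optimal) and 12, 16 and 13 TPM (late) in Lumen, and 10, 13 and 13 TPM (optimal) and 15, 16 and 15 TPM (late) in Solar. Shaded libraries had 14, 16 and 13 TPM (optimal) and 14, 12 and 13 TPM (late) in Lumen, and 13, 14 and 12 TPM (optimal) and 18, 19 and 18 TPM (late) in Solar. Only Solar in the late sowing date had its shaded libraries above its control libraries, and it also had the highest levels of this time.

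Over all libraries, IDD1 had 12.2 ± 2.08 TPM in control seeds and 14.9 ± 3.12 TPM in shaded seeds (SD, n = 24 each), and SS was 0.28 on the log2 scale (standard error 0.05, 95% confidence interval 0.16 to 0.39, adjusted p = 0.000406, limma), a 1.21-fold rise. The SD within groups was 0.19 on the log2 scale for IDD1 and 0.74 for CRF6. At 7 DAF the means were 10.8 ± 1.40 and 15.2 ± 3.76 TPM (SD, n = 12 each), a log2 difference of 0.44 (standard error 0.08, adjusted p = 0.000168, limma). At 14 DAF they were 13.5 ± 1.78 and 14.7 ± 2.46 TPM, a log2 difference of 0.11 (95% confidence interval −0.05 to 0.27, adjusted p = 0.393, limma). The interaction of time and shading was −0.33 (standard error 0.11, adjusted p = 0.079, limma) and did not pass the threshold.

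By combination, IDD1 was higher under shading in 7 of 8, and the exception was Lumen in the late sowing date at 14 DAF (−0.06). The largest difference was, as for CRF6, in Lumen in the late sowing date at 7 DAF (0.84, standard error 0.16, adjusted p = 0.000894, limma), the only one past the threshold. It lost its call without replicate 2 (0.71, adjusted p = 0.0273, limma) or replicate 3 (0.77, adjusted p = 0.0199, limma) of the shaded libraries there. Shaded libraries lay above all control libraries in 2 of 4 combinations at 7 DAF (Lumen optimal, as 6.72% of all genes, and Lumen late, as 6.52%) and in 1 of 4 at 14 DAF, Solar in the late sowing date, where 5.06% of all genes did so. In Lumen alone, SS was 0.30 and fell short of the threshold (adjusted p = 0.016, limma), while shading at 7 DAF was 0.56 and passed it (adjusted p = 0.00331, limma). Without all libraries of replicate 3, neither SS (0.25, adjusted p = 0.0505, limma) nor shading at 7 DAF (0.35, adjusted p = 0.145, limma) passed.

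**Figure D2:**
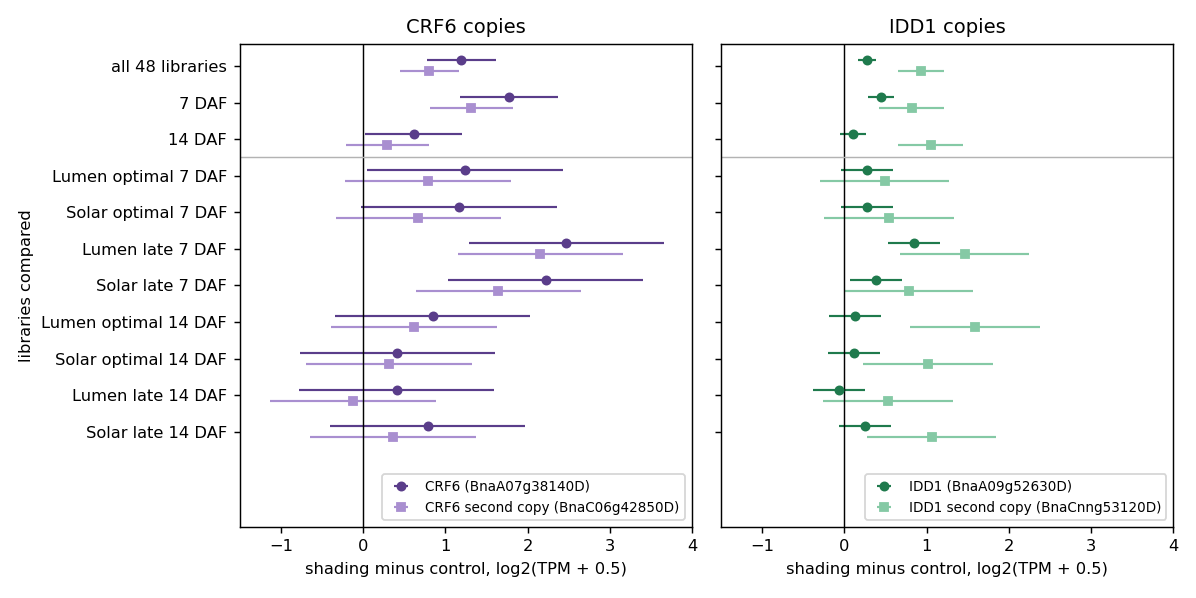
Difference between shading and control on the log2(TPM + 0.5) scale, with 95% confidence intervals from limma, for both copies of CRF6 (left) and of IDD1 (right). The rows are all 48 libraries, each time, and the 8 combinations of genotype label, sowing date and time. CRF6 differences are largest for late sowing at 7 DAF (2.47 in Lumen, 2.22 in Solar), and the second copy of IDD1 is the one with a difference near 1 also at 14 DAF (1.05).

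IDD1 was also higher in the late sowing date, with 14.6 ± 3.57 TPM against 12.5 ± 1.67 TPM in the optimal one (SD, n = 24 each). The log2 difference of 0.20 (standard error 0.05, adjusted p = 0.00567, limma) passed the threshold, as did 20.9% of all genes and 10.3% upwards. Every late library lay above every optimal one in 2 of 8 combinations, Solar control and Solar shading at 14 DAF, where 7.18 and 6.28% of all genes did so. Genotype labels are doubtful for part of these optimal libraries, and in Lumen alone the difference was 0.10 (adjusted p = 0.335, limma). Without the closest pair it was 0.17 (adjusted p = 0.0174, limma), and with each library rescaled to the same sum 0.11 (adjusted p = 0.16, limma).

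From 7 to 14 DAF, IDD1 went from 10.8 ± 1.40 to 13.5 ± 1.78 TPM in control seeds (SD, n = 12 each), a difference that was not tested on its own. In 3 of 4 control combinations, all libraries at 14 DAF lay above all at 7 DAF. Of all genes, 12.5% separated so in Lumen in the optimal sowing date, 13.8% in Lumen in the late one and 13.7% in Solar in the late one. Library sums differed as well. Control sums in Lumen in the late sowing date were 1195964, 1077706 and 1050325 TPM at 14 DAF. At 7 DAF they were 1054079, 921975 and 934866 TPM. Rescaling each library to the same sum moved the median time difference of all genes by −0.08 on the log2 scale. The separations were not tested on that scale. In shaded seeds the means were 15.2 and 14.7 TPM, and no combination was separated. The main effect of time, 0.14 on the log2 scale, was not past the threshold (adjusted p = 0.0405, limma). Lumen and Solar differed by 0.03 on the log2 scale over all libraries (95% confidence interval −0.08 to 0.14). At 14 DAF in the late sowing date, IDD1 had 16.8 ± 1.72 TPM in Solar and 13.3 ± 1.51 TPM in Lumen (SD, n = 6 each), a log2 difference of 0.33 that did not pass the threshold (adjusted p = 0.0185, limma).

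The 16 groups for IDD1 ranged from 10.3 ± 0.58 TPM in Lumen control late at 7 DAF to 19.3 ± 4.73 TPM in Lumen shading late at 7 DAF (SD, n = 3 each), the same genotype, sowing date and time. Solar shading late at 14 DAF came second with 18.3 ± 0.58 TPM. The gap of 3.0 TPM below it was the only one between neighbours in the order that exceeded the larger SD of both. The 4 lowest groups were the 4 control groups at 7 DAF.

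Both genes followed each other closely at 7 DAF. Pearson's r between their log2 values was 0.86 over the 24 libraries at 7 DAF and 0.63 over the 24 at 14 DAF, and Spearman's rho was 0.84 and 0.50. These are descriptions: the libraries of a time share the shading contrast, and at 7 DAF both genes were picked from 1 module. Over the 24 control libraries of both times, r was 0.40. Replicate 3 of Lumen shading in the late sowing date at 7 DAF had the highest CRF6 level, 24 TPM, and the second highest IDD1 level, 21 TPM.

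**Figure D3:**
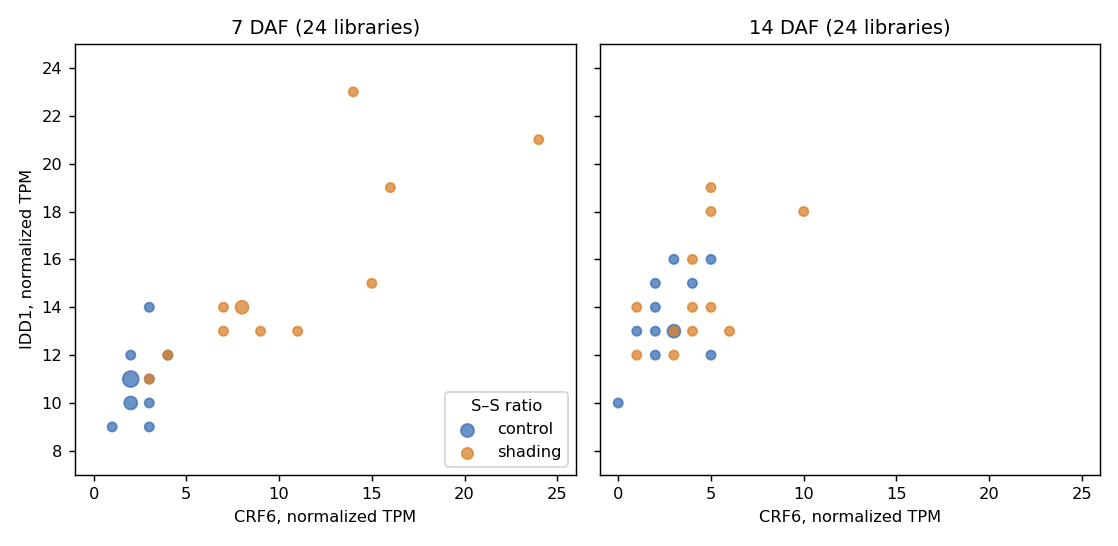
IDD1 against CRF6 in normalized TPM, 24 libraries at 7 DAF (left) and 24 at 14 DAF (right), control in blue and shading in orange. Larger points are 2 or more libraries with the same pair of values. At 7 DAF the control libraries gather at or below 4 TPM of CRF6 and the shaded ones spread to 24 TPM of CRF6 and 23 TPM of IDD1.

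The second copies show how far the pattern is shared within each pair. Both second copies also stand in the study's list of TFs of the module that follows shading. Their rise at 7 DAF is therefore not independent of that choice either. For CRF6, the copy on the C subgenome, BnaC06g42850D, had nearly the same level as BnaA07g38140D, with 4.5 ± 3.57 and 4.96 ± 4.59 TPM (SD, n = 48). It rose from 3.0 ± 1.38 TPM in control seeds to 6.0 ± 4.41 TPM in shaded seeds (SS 0.81, standard error 0.18, adjusted p = 0.00111, limma), and at 7 DAF from 3.0 ± 1.13 to 8.67 ± 4.89 TPM (log2 difference 1.32, adjusted p = 0.000399, limma). At 14 DAF it had 3.0 ± 1.65 and 3.33 ± 1.15 TPM (log2 difference 0.30, adjusted p = 0.489, limma). As for BnaA07g38140D, the interaction of time and shading was not past the threshold (−1.02, adjusted p = 0.0918, limma). Its level was lower at 14 DAF (−0.66, adjusted p = 0.00229, limma), a call that BnaA07g38140D narrowly missed. Pearson's r between both copies was 0.83 over 48 libraries, and 0.89 over the 16 group means.

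Of both CRF6 copies, the A copy had the larger shading difference. The log2 ratio of BnaA07g38140D to BnaC06g42850D rose from −0.18 in control to 0.20 in shaded seeds, in 8 of 8 combinations. The difference of 0.39 had p = 0.00822 and an adjusted p of 0.011 over 4 such ratio tests (two-sided test with 100000 permutations within combinations of the other factors), above the 0.01 used across genes. These tests were chosen after the values were seen. The A copy is also the one that the study ranked among its top TFs by trait correlation, so this comparison is not independent of that choice. With time the ratio moved by 0.04 (adjusted p = 0.8, permutation test). The A copy gave 45.9% of the sum of both copies in control and 55.1% in shaded seeds. Near-identical copies can share reads, so the split between them is less certain than their sum. The sum of both had 5.54 ± 2.30 TPM in control seeds and 13.4 ± 9.48 TPM in shaded seeds, with SS of 1.1 (adjusted p = 0.000246, limma) and a time effect of −0.69 that passed the threshold (adjusted p = 0.00703, limma).

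The copies of IDD1 differed in level and in course. BnaCnng53120D had 2.71 ± 1.87 TPM and BnaA09g52630D 13.5 ± 2.97 TPM (SD, n = 48), and the latter was the higher one in 48 of 48 libraries. BnaCnng53120D fell with time, from 3.88 ± 1.80 TPM to 1.54 ± 1.02 TPM (log2 difference −1.16, standard error 0.14, adjusted p = 1.25e-08, limma), lower in 8 of 8 combinations. BnaA09g52630D was higher at 14 DAF in 7 of 8, by log2 differences of 0.01 to 0.40. Its time effect did not pass the threshold (0.14, adjusted p = 0.0405, limma). The log2 ratio of BnaA09g52630D to BnaCnng53120D was 1.71 at 7 DAF and 3.01 at 14 DAF, a difference of 1.3 with the same direction in 8 of 8 combinations (p = 1e-05, the smallest that 100000 permutations can give, adjusted p = 2e-05 over 4 tests). Lumen alone gave 1.53. With a mean of 1.54 TPM for BnaCnng53120D at 14 DAF, the ratio there rests on low, rounded values.

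On the log2 scale, though not in TPM, BnaCnng53120D rose more under shading than BnaA09g52630D. It had 1.75 ± 1.19 TPM in control seeds and 3.67 ± 1.95 TPM in shaded seeds (SS 0.93, standard error 0.14, adjusted p = 6.07e-06, limma). Unlike the other copies named so far, it passed the threshold at 14 DAF as well as at 7 DAF. At 14 DAF, its control libraries had 0 or 1 TPM and 9 of 12 shaded libraries were above 1 TPM, with means of 0.83 ± 0.39 and 2.25 ± 0.97 TPM (log2 difference 1.05, standard error 0.19, adjusted p = 0.00031, limma). At 7 DAF the means were 2.67 ± 0.98 and 5.08 ± 1.62 TPM (log2 difference 0.82, adjusted p = 0.00469, limma). The call at 7 DAF was kept in 39 of 48 fits without a single library (adjusted p up to 0.015, limma). In Lumen alone the differences were 1.06 at 14 DAF and 0.98 at 7 DAF, and neither passed the threshold (adjusted p = 0.0853 and 0.0747, limma). At these levels a single TPM step decides much of the difference, since values were rounded. The log2 ratio of BnaA09g52630D to BnaCnng53120D was lower under shading in 8 of 8 combinations, by 0.66 on average (2.03 against 2.69, p = 1e-05, adjusted p = 2e-05, permutation test).

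**Figure D4:**
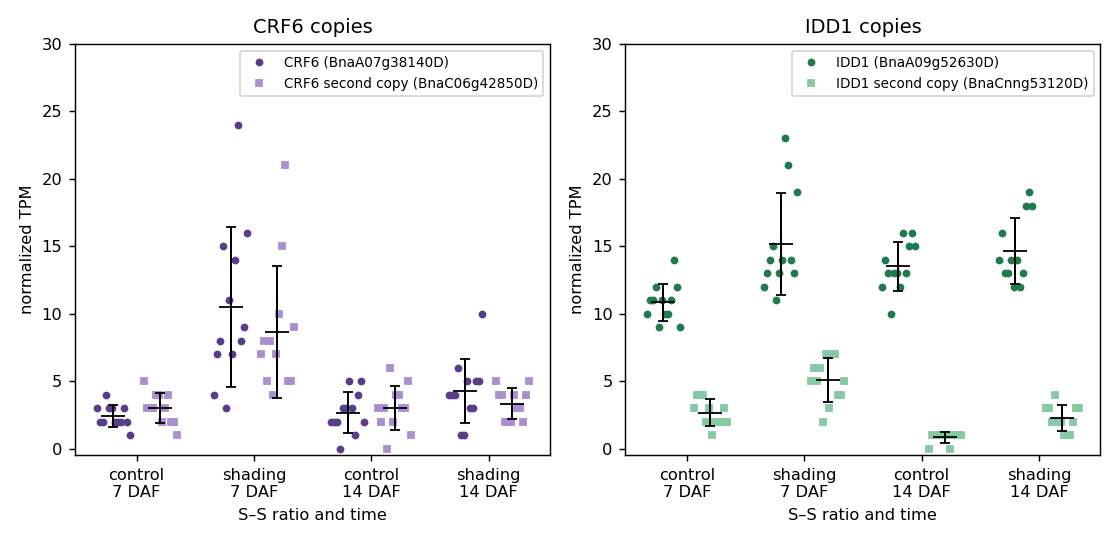
Normalized TPM of both annotated copies of CRF6 (left) and IDD1 (right) by S–S ratio and time. Each point is a library (12 per set), black bars are means and whiskers are 1 SD. Both CRF6 copies stand high in shaded seeds at 7 DAF (means 10.5 and 8.67 TPM), while the second IDD1 copy is lower at 14 than at 7 DAF in control and in shaded seeds.

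The sum of both IDD1 copies had 13.9 ± 1.86 TPM in control seeds and 18.6 ± 4.30 TPM in shaded seeds (SS 0.38, adjusted p = 2.08e-05, limma). With the sum in place of BnaA09g52630D, the sowing date effect was 0.11 and not past the threshold (adjusted p = 0.177, limma), and the time difference changed sign to −0.08 (adjusted p = 0.333, limma). BnaA09g52630D gave 80.2% of the sum in control and 74.9% in shaded seeds at 7 DAF, and 94.2 and 86.7% at 14 DAF. Shading at 7 DAF in the sum was 0.55 (adjusted p = 4.21e-05, limma).

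Annotation was read for 5779 genes, those in the readable parts of the study's tables. Most of these tables list genes that the study picked from these libraries, so lists made from them are not independent of shading. Of 12 Arabidopsis loci of the CRF family, the annotation matched only CRF6 with its 2 copies. Of 15 loci of the IDD family it matched 4 genes, of which 3 rose under shading (both IDD1 copies and BnaA01g37250D) and none fell, against 6.18% of all genes that rose and 3.03% that fell. All 3 are in the study's list of TFs of the module that follows shading at 7 DAF, and BnaA09g18950D is not. The count therefore follows that choice and does not describe the family. BnaA01g37250D, a copy of IDD11, had 2.0 ± 0.42 TPM in control seeds and 3.92 ± 2.28 TPM in shaded seeds (SD, n = 24, SS 0.69, adjusted p = 8.28e-05, limma). BnaA09g18950D, a copy of IDD5, had 10.8 ± 3.49 and 11.1 ± 3.49 TPM (SS 0.06, 95% confidence interval −0.14 to 0.26, adjusted p = 0.732, limma). Among annotated genes with an AP2/ERF domain, 13 of 42 tested rose under shading and 1 fell, with a median difference of 0.53, and among those with a C2H2 zinc finger 7 of 27 rose and 0 fell, with a median of 0.12. Of all genes tested, 6.18% rose and 3.03% fell, with a median of 0.00. An excerpt of the study's table of all genes was not picked by response. In it, none of 4 tested genes with an AP2/ERF domain passed the threshold for SS (median −0.14, lowest adjusted p = 0.114, limma). Nor did any of 4 with a C2H2 zinc finger (median 0.12, lowest adjusted p = 0.0605, limma). As 9.21% of all genes passed in either direction, sets of 4 are too small to differ from that share. At 14 DAF, 1 of these AP2/ERF genes, BnaA07g16350D, was lower under shading (−2.13, adjusted p = 0.00293, limma).

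The list of TFs of the module from which both genes were taken held 81 genes as read here, which may not be all of them. Among the 80 of these that were tested, CRF6 ranked 33 and IDD1 78 by the size of the shading difference at 7 DAF, and 44 and 70 at 14 DAF. The median over these TFs was 1.59 at 7 DAF and 0.68 at 14 DAF. The difference of CRF6 was thus close to that median at both times and that of IDD1 below it. By mean level on the log2 scale, CRF6 stood at the percentile 40.6 and IDD1 at 75.0 of all genes tested.

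Of 38 loci of cytokinin metabolism and signalling, 7 genes were matched and 6 tested. Under shading, 2 rose, 0 fell and 4 did not pass the threshold, with a median difference of 0.10, while 6.18% of all genes rose and 3.03% fell. Most annotated genes were picked by the study from these libraries, so these counts do not describe the pathway as a whole. BnaC06g36220D, a copy of CKX5 for a cytokinin oxidase that degrades the hormone, had 13.3 ± 5.35 TPM in control seeds and 32.7 ± 28 TPM in shaded seeds (SD, n = 24, SS 0.99, standard error 0.15, adjusted p = 1.27e-05, limma). Its difference was 1.61 at 7 DAF (adjusted p = 4.16e-06, limma) and 0.37 at 14 DAF (adjusted p = 0.28, limma), and 9 of 12 shaded libraries at 7 DAF lay above its highest control library of 26 TPM. BnaC08g27970D, a copy of ARR9, a type-A response regulator that dampens cytokinin signalling in Arabidopsis, went from 1.08 ± 0.50 to 2.04 ± 0.91 TPM (SS 0.68, adjusted p = 0.00219, limma). The other matched copy of ARR9, BnaA07g17140D, had an SS of −0.13 (adjusted p = 0.321, limma).

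Of 23 loci of gibberellin signalling and seed maturation, 2 genes were matched and 1 was tested, BnaA05g08020D, a copy of ABI5, a bZIP factor of abscisic acid signalling in seeds. It had 3.46 ± 1.91 TPM in control seeds and 5.08 ± 3.05 TPM in shaded seeds (SS 0.47, adjusted p = 0.0066, limma), and fell by 1.16 on the log2 scale from 7 to 14 DAF (adjusted p = 1.34e-09, limma). Few markers of seed tissues could be matched. MUM4, a seed coat mucilage gene (BnaA05g14410D), had an SS of −0.04 (adjusted p = 0.882, limma). RCA, the Rubisco activase of green tissue (BnaA05g05840D), was lower under shading (SS −0.35, adjusted p = 0.00289, limma), with −0.08 at 7 DAF and −0.62 at 14 DAF. The part of tissue composition in the levels of CRF6 and IDD1 was not tested.

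The genes whose 16 group means were most like those of CRF6 reached a Pearson's r of 0.94, and 19 of 53793 genes compared had an r of at least 0.9. The first 5 were BnaC04g55480D (r = 0.94), BnaC08g15310D (0.94), BnaC07g14330D (0.94), BnaC04g08990D (0.92) and BnaC03g08540D (0.92). The last of these has a RING-type zinc finger and the others have no annotation here. Their r over the 48 libraries was 0.75 to 0.86. The second copy of CRF6 ranked 27, and IDD1 ranked 1097 with an r of 0.69. For IDD1 itself, 16 genes had an r of at least 0.9, and the first 5, none of them annotated here, were BnaA01g28090D (0.95), BnaA02g22110D (0.93), BnaA07g28040D (0.93), BnaC01g36910D (0.93) and BnaA03g23800D (0.92). BnaA01g28090D had a mean of 1.1 TPM, so its pattern rests on a few rounded values. The second copy of IDD1 ranked 16426 with an r of 0.18. These likenesses are descriptions over 16 groups that share the design.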

How the data were processed

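Per the labels and the methods of the study, the authors pseudo-aligned reads of 48 seed libraries to rapeseed cDNAs with kallisto 0.46 and normalized TPM with sleuth. The deposited values are whole numbers and were treated as a score, normalized TPM rounded by the authors, not as counts. The 53810 genes reaching 1 TPM in 47% or more of libraries were fitted with limma 3.58.1 (R 4.3.3) on log2(TPM + 0.5), with S–S ratio, genotype, time, sowing date and all interactions (15 terms). All groups shared 1 estimate of the spread, and p was adjusted over all genes by the Benjamini-Hochberg method at 0.01. The model has no term for main plots or subplots, so its p-values for sowing date and shading can be too small. The permutation tests of the ratios also took libraries as independent, though shading was assigned to subplots and plots were sampled at both times. Their p-values can be inexact for this reason. Likeness was Pearson's r over 16 group means. The fit was tested on simulated data. Members, lists and tests were chosen with earlier results of these data known. Named were both members, their annotated copies, annotated CRF and IDD genes, up to 3 genes per family or pathway list with the largest shading difference past the threshold, matched markers, and 5 genes most alike. The second copy of ARR9 was named after its values were seen. Alternatives covered pseudocount, filter, scaling, trend, blocks, libraries left out and threshold, and, added after seeing the data, the sum of copies and the ratio tests. The authors' q-values were not used. No sequences or positions were used here.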

Additional observations from a re-analysis of the deposited data

How the results depend on the processing

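The shading effects of CRF6 and IDD1 over all libraries and at 7 DAF kept direction and call under every scaling, filter, pseudocount, trend and block tried and without any single library, with the exceptions named here. SS lay between 0.97 and 1.44 for CRF6 and between 0.25 and 0.30 for IDD1 when libraries were left out, shading at 7 DAF between 1.38 and 2.04 and between 0.35 and 0.54, and the lowest values, without replicate 3, lost the call. IDD1 SS was 0.30 and not called in Lumen alone. The CRF6 time effect passed at a pseudocount of 1 (−0.55), at a sum of 1000000 per library (−0.70), without the closest pair (−0.71), for the sum of copies (−0.69) and at an adjusted p under 0.05 (−0.62), and lay between −0.74 and −0.48 with libraries left out, past the threshold in 8 of 48 fits without a single library. The IDD1 time effect (0.14) passed at an adjusted p under 0.05 and was −0.075 for the sum of copies. The IDD1 sowing date effect was not called at a sum of 1000000 (0.11), with quantile normalization (0.15), in Lumen alone (0.10), without the closest pair (0.17), with main effects only (0.20) and for the sum of copies (0.11), and lay between 0.18 and 0.22 with libraries left out. It lost the call without each of 6 single libraries (0.18 in each case), namely Lumen control late 14 DAF replicate 2, Lumen shading late 7 DAF replicate 2, Solar control optimal 7 DAF replicate 2 and 14 DAF replicate 1, Solar control late 7 DAF replicate 1 and Solar shading late 7 DAF replicate 3. The cause was not tested. The CRF6 genotype difference, near 0, was −0.010 at a pseudocount of 0.25, −0.26 for the sum of copies and −0.065 to 0.14 with libraries left out, and that of IDD1 was −0.042 to 0.085. The CRF6 interaction of time and shading lay between −1.72 and −0.82.

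The number of combinations past the threshold for CRF6, 1 in the fit reported, was 0 at a pseudocount of 0.25, with no filter, with quantile normalization, without the trend and with the replicate block, 2 at an adjusted p under 0.05, and 0 to 2 with libraries left out. For IDD1 it was 0 to 1. Values at 14 DAF that changed sign with libraries left out were, for shading in CRF6, Lumen late (−0.11 to 0.83) and Solar optimal (−1.22 to 1.24), in IDD1, Lumen late (−0.20 to 0.11) and Solar optimal (−0.0040 to 0.23), and in the second copy of CRF6, Solar late (−0.39 to 0.79) and Solar optimal (−0.69 to 1.16). The second copy of IDD1 in Lumen late went down to 0.00 (0.00 to 0.79) without turning sign. Replicate numbers did not pair the libraries: the correlation of same-numbered deviations had a median of 0.006 and was over 0.1 in 63 of 360 pairs, and the block moved no call of SS (1.19 for CRF6 and 0.28 for IDD1) or of the other main effects. Precision is limited by rounding and by 3 plots per group.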
